A study of Mus musculus with 3 samples.

Results

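The complement system was examined in the choroid plexus epithelium (CPE) through 8 of its genes: *C1qa*, *C1qb*, *C2* and *C3* (components), *C3ar1* (a receptor) and *Cfi*, *Clu* and *Cd59a* (regulators). Every array probe carrying one of these gene names was taken, which gave 12 probes among 41174, or 8 of 27845 gene or transcript names. The samples came from 3 healthy adult female C57BL/6 mice that had received no treatment. Epithelium of the lateral ventricles was cut by laser from brain cryosections of 20 µm, and the amplified RNA of each mouse was labelled with Cy5 and hybridised to a whole-genome Agilent array of its own. Cy3 marked the reference on every array, a single RNA prepared from eye tissue, namely retinal pigment epithelium (RPE) together with choroid. The comparison therefore asked how strongly the complement genes were expressed in CPE and how that level stood against this reference RNA. Dyes were not swapped, so a preference of a probe for one dye remains in every ratio, and with 1 reference RNA no error given here includes variation between reference animals.

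Complement is a cascade of plasma and tissue proteins that tags surfaces and recruits immune cells. C1q starts the classical pathway, C2 is part of the protease that cleaves C3, and cleaved C3 both coats targets and releases the peptide sensed by the C3a receptor. Host cells are spared by soluble and membrane-bound inhibitors, among them factor I, clusterin and CD59. In the brain, complement proteins are made locally as well as brought in from blood, and the choroid plexus lies between these sources, since its epithelium faces fenestrated capillaries on the stromal side and cerebrospinal fluid on the other.

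The tissue label was first held against defining markers. Among 12 CPE markers on the array, 10 exceeded the reference past the threshold, and all 12 were in the high class of CPE levels. The threshold was an adjusted p under 0.05 in limma's moderated test together with a change of at least 2-fold, and the high class holds probes above the 90th percentile of log2 CPE intensity, averaged over mice, among all probes of the array. The share of probes well above background in the CPE channel was 58.5% in mouse 1, 46.0% in mouse 2 and 85.6% in mouse 3, and the fitted background of mouse 3 was 363 intensity units against 81.2 and 82.6. Markers of other cells were measurable too: 8 of 14 macrophage and microglia markers, 5 of 6 stromal, 4 of 6 neuronal, 7 of 8 RPE and melanocyte, 6 of 6 photoreceptor and 3 of 3 red blood cell markers were lower in CPE. All 5 tested ependymal markers were higher in CPE, as were 1 of 8 endothelial and 1 of 6 astrocyte markers, while 3 astrocyte markers were lower. The ependymal list was not checked for expression by the epithelium itself, so its signal is not assigned to ependymal cells. In the reference, the summed normalized intensity of photoreceptor markers was 159000 to 165000, and that of RPE and melanocyte markers 202000 to 214000. In CPE these sums were 4310 to 5980 and 4690 to 6750. The reference thus also carried photoreceptor transcripts, and their part in the ratios was not tested. These lists share the array with the complement genes, and the contribution of such cells to complement signals was not tested, apart from the values given beside the results below.

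In ratio to the reference, the complement genes ran from *C2*, a component, at the low end to *Cd59a*, a regulator, at the high end. *Cd59a* was higher in CPE at both of its probes, and *C1qa*, *C3* and both *C2* probes were lower. The threshold was passed by 6 of the 11 member probes that could be tested, with 2 of them higher in CPE and 4 lower. The same held for 17.3% of the 25841 probes tested on the whole array, 7.09% in the higher and 10.2% in the lower direction. Counted as genes by their brightest probe, 1 of 8 was higher, 3 were lower and 4 were not past the threshold, beside 20.1% of all genes past it. The median log2 ratio of the 11 probes was −0.43, against −0.04 over all tested probes. With ratios centred on the median of each array in place of loess, that overall median was 0.09, and the share of higher probes among those past the threshold was 67.0% in place of 41.1%. This scaling is named beside each complement gene whose direction or call it changed. The tissue was measured in bulk, so fewer cells of a type and less RNA per cell cannot be told apart.

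**Figure D1:**
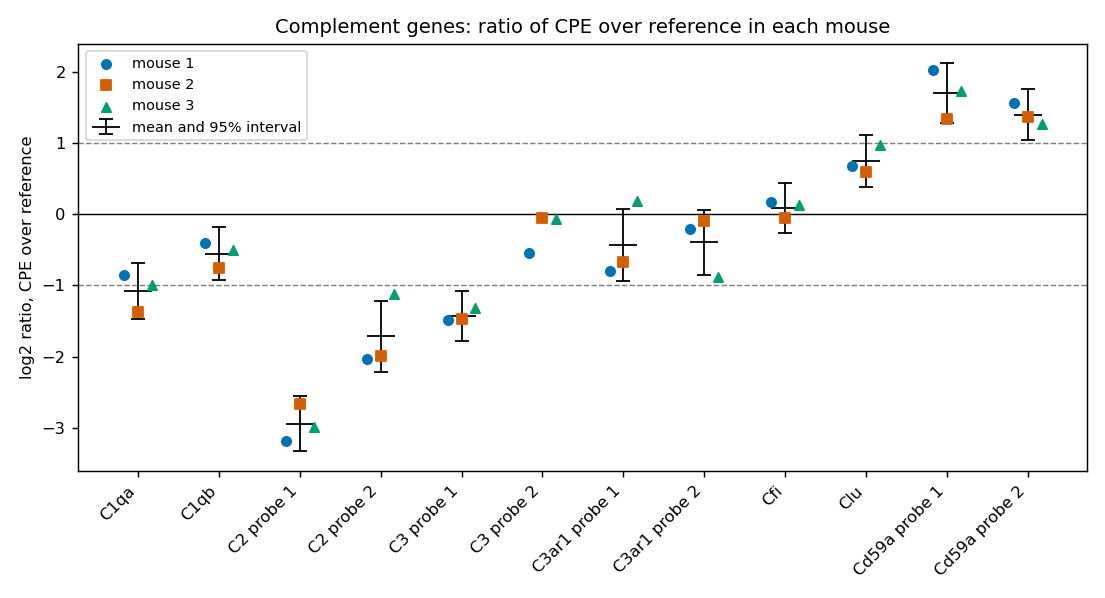
Log2 ratio of CPE over reference (vertical axis) at each of the 12 probes, by mouse, with the mean and its 95% interval from limma for the 11 tested probes; dashed lines mark a 2-fold change. All 3 mice lie above the upper line at both *Cd59a* probes and below the lower line at both *C2* probes and at *C3* probe 1. Probe 2 of *C3* was not tested and has no interval.

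Promoter sequence is shown for *C3* (called lower), *C1qb* (lower by less than 2-fold, with a sign that turned under median centring) and *Cd59a* (called higher). The sequences are the 250 bases before the annotated start, from RefSeq on build GRCm38.p6, and 4 of the 8 genes matched the promoter table (*Cd59a*, *C1qb*, *C3ar1* and *C3*). The *C3* promoter lies at chr17:57228137-57228386 on the minus strand, that of *C1qb* at chr4:136886201-136886450 on the minus strand and that of *Cd59a* at chr2:104095551-104095800 on the plus strand. Each is written 5′ to 3′ in the direction of transcription, and capitals mark a match to a searched motif.
C3: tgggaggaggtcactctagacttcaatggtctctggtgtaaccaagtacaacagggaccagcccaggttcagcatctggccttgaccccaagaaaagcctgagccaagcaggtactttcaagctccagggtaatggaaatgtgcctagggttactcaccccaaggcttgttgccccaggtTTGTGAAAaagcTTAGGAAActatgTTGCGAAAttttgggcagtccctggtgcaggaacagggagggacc
C1qb: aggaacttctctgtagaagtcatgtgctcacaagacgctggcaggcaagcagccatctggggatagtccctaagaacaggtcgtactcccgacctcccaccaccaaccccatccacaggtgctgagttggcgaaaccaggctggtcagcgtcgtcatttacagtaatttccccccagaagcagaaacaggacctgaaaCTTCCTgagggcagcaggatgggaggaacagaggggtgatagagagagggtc
Cd59a: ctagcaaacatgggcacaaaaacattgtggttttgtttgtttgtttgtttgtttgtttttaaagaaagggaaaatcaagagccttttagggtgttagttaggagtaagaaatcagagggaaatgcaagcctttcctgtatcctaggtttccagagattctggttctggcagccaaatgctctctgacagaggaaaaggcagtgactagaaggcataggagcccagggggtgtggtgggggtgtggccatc
Both strands were searched for the TATA box, spelled TATAAA, for the CCAAT box, for the GC box, spelled GGGCGG, for an ETS core, spelled AGGAAG, and for a C/EBP-like motif, spelled TTNNGNAA. *C3* held the C/EBP-like motif 3 times, at 70 to 63, 58 to 51 and 45 to 38 bases before the start, without overlap. A match to that short motif is found in 36.8% of 32851 promoters of the same length. *C1qb* held the ETS core at 52 to 47 bases before the start, read as CTTCCT on the printed strand, as did 29.5% of promoters on either strand. *Cd59a* held none of the searched motifs. A match is a run of letters and not a site shown to be bound, and no match says only that these letters are not in this window.

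The C1q chains head the classical pathway. *C1qa* and *C1qb* encode chains of the recognition molecule C1q, which in brain is known chiefly as a product of microglia and macrophages. Their probes lie on chromosome 4 of build mm8, at 136168570 to 136168629 (*C1qa*) and 136152739 to 136152798 (*C1qb*), both on the minus strand and 15.8 kb apart. The *C1qc* probe lies between them, 9.13 kb from that of *C1qb* and 6.58 kb from that of *C1qa*.

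The *C1qa* probe had log2 ratios of −0.86, −1.37 and −0.998 in mice 1, 2 and 3. It was below the reference in every mouse and lowest in mouse 2. The mean was −1.08 (SE 0.17, n = 3, 95% interval −1.47 to −0.69, adjusted p 0.00218 in limma's moderated test), which is 2.11-fold lower in CPE. This call was close to the 2-fold limit: without mouse 2 the ratio was −0.93 and under median centring it was −0.49 (adjusted p 0.307).

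*C1qb* had log2 ratios of −0.40, −0.76 and −0.50, again lowest in mouse 2. Its mean of −0.56 (SE 0.16, n = 3, 95% interval −0.92 to −0.19, adjusted p 0.0264) was below the 2-fold limit, and its sign turned under median centring, where the ratio was 0.05 (adjusted p 0.928). *C1qc*, the gene of the third chain and no member of the set, had −0.69, −0.73 and −0.91 with a mean of −0.77 (adjusted p 0.00607), and −0.05 under median centring.

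In rank within the CPE channel the C1q chains were well up the array. *C1qa* lay at percentile 85.7 of CPE intensity (86.3, 82.3 and 86.3 in mice 1 to 3), *C1qb* at 89.3 (88.8, 87.3 and 91.0) and *C1qc* at 93.9, in the high class. In the reference channel *C1qa* and *C1qb* lay at 92.3 and 92.2. Ranks of different probes do not order transcripts by abundance, because probes differ in how well they hybridise.

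Macrophage and microglia markers were set beside the C1q chains. All 14 were well above background in all 3 CPE samples, 0 of 14 were past the threshold and higher, and 8 were lower, with a median log2 ratio of −1.24 over the list and of −1.13, −1.10 and −1.36 in mice 1, 2 and 3. Their summed normalized intensity ranged from 14200 to 14900 in CPE and from 93300 to 98600 in the reference. *Lyz2* had a mean ratio of −3.40, *Trem2* of −2.46, *Csf1r* of −1.18 and *Cx3cr1* of 0.56. The marker median was lowest in mouse 3, as was *C1qc*, while *C1qa* and *C1qb* were lowest in mouse 2. The ratios of the C1q chains lay within the wide range of these markers, and the part of macrophages in the C1q values was not tested.

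**Figure D2:**
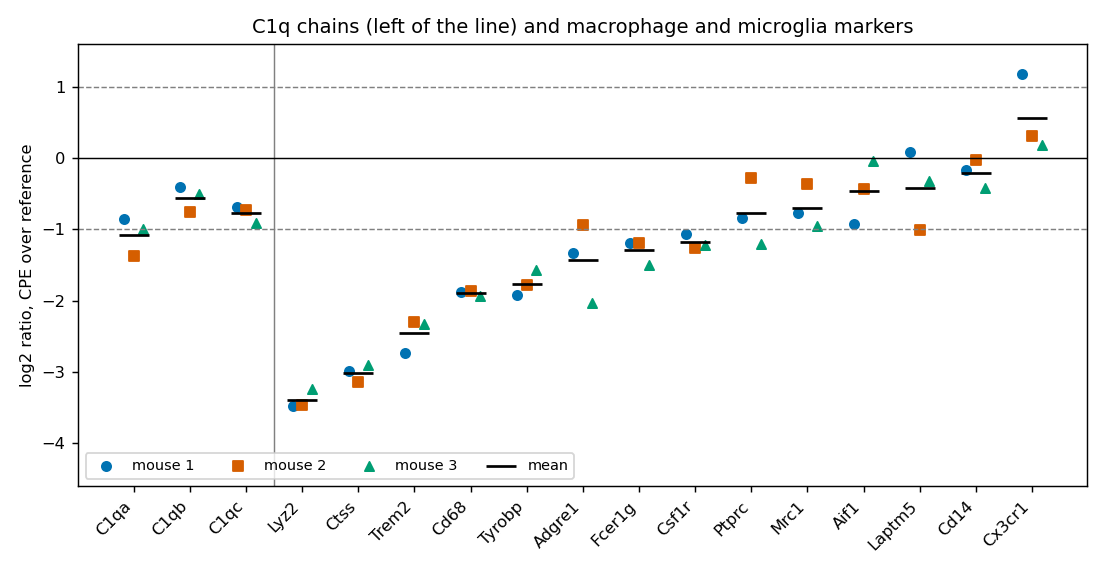
Log2 ratio of CPE over reference (vertical axis) in each mouse for the 3 C1q chains, left of the vertical line, and for 14 macrophage and microglia markers, ordered by their mean, which the black bar gives; dashed lines mark a 2-fold change. The C1q chains, with means from −1.08 to −0.56, sit inside the range of the markers, from −3.40 for *Lyz2* to 0.56 for *Cx3cr1*.

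*C2* showed the widest gap of the set. It encodes the serine protease that joins C4b to form the C3 convertase of the classical and lectin pathways. Its probe 1 lies on chromosome 17 (mm8) at 34470686 to 34470745 and its probe 2, 492 bp upstream in the direction of transcription, at 34471237 to 34471412, on the minus strand. The interval of probe 2 is 176 bp long, against 60 bp for probe 1. Build mm8 annotation was not used here, so exons are not assigned.

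At probe 1 the unnormalized CPE intensity was 783, 716 and 908 in mice 1 to 3, and that of the reference 3492, 3262 and 3065. These intensities come from different dyes before normalization, so their order alone is not a result. The log2 ratio after normalization was −3.18, −2.67 and −2.98, with a mean of −2.94 (SE 0.17, n = 3, 95% interval −3.33 to −2.56, adjusted p 2.3e-05), or 7.69-fold lower in CPE. Probe 2 had −2.04, −1.999 and −1.12 with a mean of −1.72 (SE 0.21, 95% interval −2.22 to −1.22, adjusted p 0.000758), a 3.29-fold difference. Under median centring the ratios were −2.30 and −1.20, and both stayed past the threshold. Both probes thus placed *C2* below the reference in all 3 mice, but they differed in size, probe 2 being nearer 0 by 1.14, 0.67 and 1.86 in the 3 mice.

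*C2* was nevertheless detected in CPE, with both probes well above background in all 3 mice and at percentiles 80.3 and 79.4, in the moderate class. In the reference they lay at 97.1 and 92.6. The neighbouring *Cfb*, which encodes factor B, the counterpart of C2 in the alternative pathway, lies 5.72 kb away and had log2 ratios of −1.11, −0.70 and −0.62 with a mean of −0.81, below the 2-fold limit (adjusted p 0.00747). *C4b*, 133 kb away, had −1.48, −1.89 and −0.54 with a mean of −1.30 (adjusted p 0.0058), and −0.86 under median centring, where it was not called.

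*C3* encodes the component on which all activation pathways meet. Probe 1 (chromosome 17, 56889328 to 56889387, mm8, minus strand) had log2 ratios of −1.49, −1.47 and −1.32. The 3 mice lay close together, with an SD of 0.09, against a median SD of 0.26 over all tested probes. The mean was −1.43 (SE 0.15, n = 3, 95% interval −1.78 to −1.08, adjusted p 0.000357), or 2.69-fold lower in CPE, and under median centring it was −0.91 (adjusted p 0.0419) and so within the 2-fold limit.

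The level of *C3* in CPE was moderate, at percentile 76.9 (73.3, 76.9 and 77.0 in mice 1 to 3), against 89.0 in the reference. Probe 2 lies 21063 bp upstream, at 56910450 to 56910607, and gave a different picture. The CPE signal stayed near background in every mouse and was never called well above it, the probe was above background in the reference on 1 array, and it was not tested. Its log2 ratios were −0.55, −0.06 and −0.07, and no fold is drawn from them.

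*C3ar1* encodes the receptor for the C3a peptide and is known from myeloid cells. Its probe 1, at chromosome 6, 122814297 to 122814356 (mm8, minus strand), had log2 ratios of −0.80, −0.68 and 0.18. Probe 2, 415 bp downstream at 122813823 to 122813882, had −0.21, −0.10 and −0.88. Mouse 3 was therefore the highest sample at probe 1 and the lowest at probe 2.

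Neither *C3ar1* probe was past the threshold. The mean was −0.43 at probe 1 (95% interval −0.94 to 0.07, adjusted p 0.156) and −0.40 at probe 2 (−0.85 to 0.05, adjusted p 0.142). With the log ratio given by the scanner software, probe 2 was called lower, at −1.26 (adjusted p 0.0196), and probe 1 was not, at −1.09 (adjusted p 0.142). Signals were dim: in CPE both probes were well above background in mice 1 and 3 and not in mouse 2, and they lay at percentiles 38.4 and 32.7, in the low class. In the reference they were at 57.9 and 46.2.

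**Figure D3:**
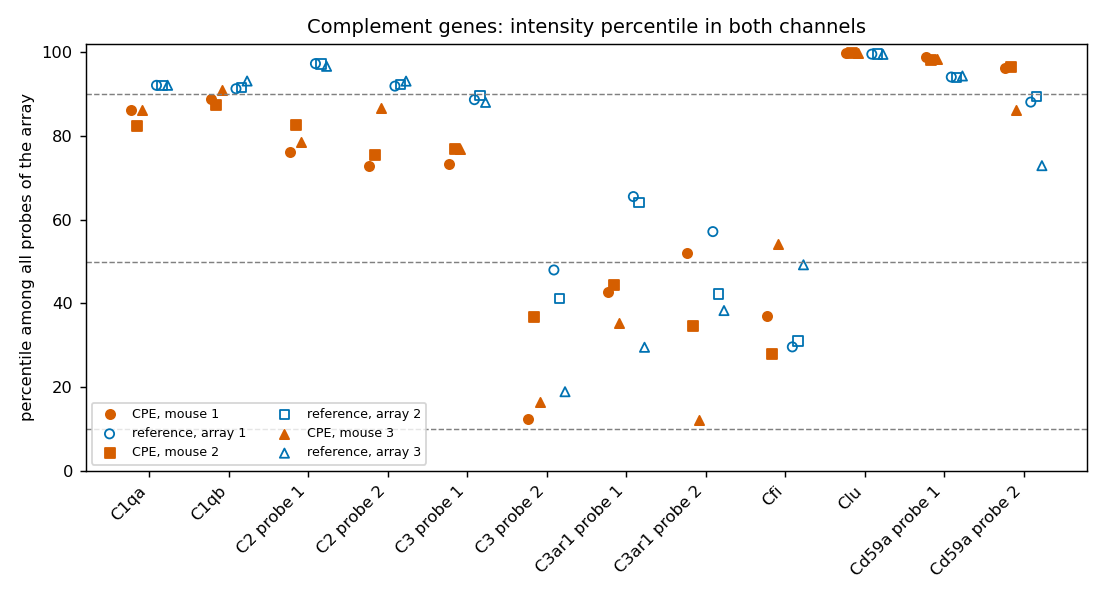
Percentile of log2 intensity among all probes of the array (vertical axis) for each complement probe, in the CPE channel (filled) and in the reference channel (open), by array; dashed lines at 10, 50 and 90 separate the very low, low, moderate and high classes. *Clu* and *Cd59a* probe 1 lie above 90 in both channels on all arrays, *C1qa*, *C2* and *C3* probe 1 lie lower in CPE than in the reference, and *C3* probe 2, *C3ar1* and *Cfi* scatter more widely between arrays, with a highest value of 65.5.

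Among the regulators, *Cfi* encodes factor I, the protease that inactivates C3b and C4b in the presence of cofactors. Its probe (chromosome 3, 129867215 to 129867274, mm8, plus strand) had log2 ratios of 0.17, −0.05 and 0.13. The mean of 0.08 (SE 0.15, n = 3, 95% interval −0.27 to 0.44, adjusted p 0.698) became −0.07 under median centring. In CPE it was well above background in mouse 3 alone and lay at percentile 41.0 (37.0, 27.99 and 54.3 in mice 1 to 3), against 36.3 in the reference. At this signal a difference within the interval was not detectable.

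*Clu* encodes clusterin, an abundant extracellular chaperone that keeps the terminal complement complex from entering membranes. The probe (chromosome 14, 64935424 to 64935483, mm8, plus strand) was among the brightest on the array, at rank 36 in CPE and 176 in the reference, and above percentile 99.8 of CPE in every mouse. Its unnormalized CPE intensity was 65393.4, 57646.5 and 44841.6 in mice 1 to 3, and that of the reference 15285.6, 17571.8 and 12693.8. The spot of mouse 1 was saturated in the CPE channel, so the ratio of that mouse can be too near 0.

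After loess, the log2 ratios of *Clu* were 0.68, 0.59 and 0.97. All 3 mice lay above the reference, with the value of mouse 1 a lower limit because of its saturated spot. The mean as measured was 0.74 (SE 0.16, n = 3, 95% interval 0.37 to 1.11, adjusted p 0.00855), or 1.68-fold, and was 0.78 without mouse 1 (adjusted p 0.0514). Median centring gave 1.72 (adjusted p 0.00368), past the threshold, while the scanner's own ratio gave 0.95 and loess with no background correction 0.72. The direction of *Clu* was the same under these 4 scalings, and its size varied more than its SE.

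*Cd59a* was the member with the clearest excess in CPE. It encodes a membrane-anchored protein that blocks the last step of pore assembly. Probe 1 (chromosome 2, 103915370 to 103915429, mm8, plus strand) had an unnormalized CPE intensity of 18259, 7658 and 10186 in mice 1 to 3, against 1943, 1909 and 1749 in the reference. Mouse 2 was the lowest of the CPE samples, and the comparison of the dyes rests on the normalized ratios. The log2 ratios were 2.03, 1.34 and 1.72, with a mean of 1.69 (SE 0.18, n = 3, 95% interval 1.28 to 2.11, adjusted p 0.00037), or 3.24-fold higher in CPE.

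Probe 2 of *Cd59a*, 459 bp upstream at 103914852 to 103914911, had ratios of 1.56, 1.36 and 1.26, with a mean of 1.39 (SE 0.15, 95% interval 1.03 to 1.75, adjusted p 0.000452), or 2.63-fold. The probes differed by at most 0.47 in any mouse. In CPE they lay at percentiles 98.6 and 94.5, in the high class, and in the reference at 94.2 and 84.5. The excess was at least as large under median centring, at 2.48 and 2.13, and with the scanner's ratio, at 1.76 and 1.63. It was smaller, though still past the threshold, with no background correction, at 1.67 and 1.30, and without mouse 1, at 1.53 and 1.31.

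The paralog *Cd59b* lies 33.5 kb from *Cd59a*. Its log2 ratios were 1.09, 1.16 and 0.45, with a mean of 0.90 (SE 0.19, 95% interval 0.46 to 1.34, adjusted p 0.00781), below the 2-fold limit. It was past that limit and called with array weights (1.01), without mouse 3 (1.12), with the scanner's ratio (1.19) and under median centring (1.39). Its percentile in CPE was 83.1. The paralogs are similar in sequence, and to what degree their transcripts share signal on these probes was not tested. Markers listed for cells that adjoin the epithelium were summed too. The summed intensity of 5 ependymal markers was 12500 to 20100 in CPE and 1180 to 1580 in the reference. For 6 stromal markers it was 18700 to 21200 and 117000 to 135000, with 5 of the 6 in the high class of CPE levels. For 8 endothelial markers it was 11800 to 15100 and 12500 to 14200, and for 6 astrocyte markers 4740 to 5320 and 10600 to 13900. The part of these cells in the *Cd59a* and *Clu* values was not tested.

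Of the 12 member probes, 3 were in the high class of CPE levels (*Clu* and both *Cd59a* probes), 5 were moderate and 4 low, where the class holds 10% of all probes by its definition. The reference had 6 member probes in its own high class, namely *C1qa*, *C1qb*, both *C2* probes, *Clu* and *Cd59a* probe 1. Of these, *C1qa*, *C1qb* and both *C2* probes were moderate in CPE. *C3* probe 1 was not among them, being just under the limit in the reference and moderate in both channels. In CPE 8 of the 12 probes were well above background in all mice, against 44.9% of probes on the array. In the reference channel 11 of the 12 were, against 61.5%.

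**Figure D4:**
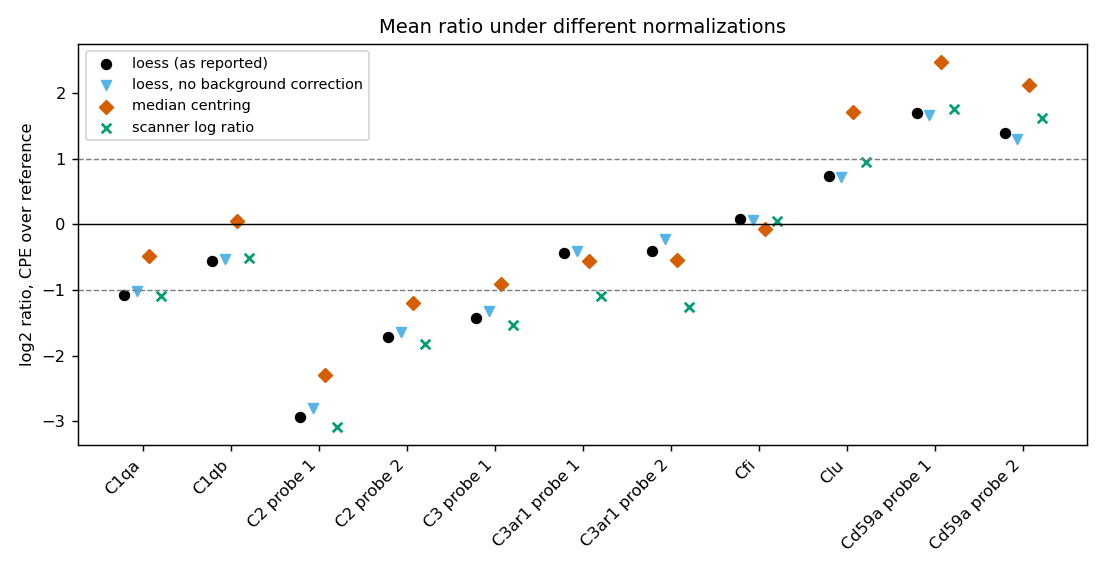
Mean log2 ratio of CPE over reference (vertical axis) at the 11 tested complement probes under 4 ways of normalizing the arrays; dashed lines mark a 2-fold change. Median centring moves the bright probes *Clu*, *Cd59a*, *C1qa* and *C1qb* upward, from 0.74 to 1.72 for *Clu*, and carries *C1qb* and *Cfi* across 0.

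The other genes of the pathway were taken from a list of 44, of which 43 were on the array and 31 were tested by their brightest probe. Of these, 3 were called higher in CPE, 5 were called lower and 23 did not pass the threshold, with a median log2 ratio of −0.38. In the whole table of 1 probe per gene, 8.9% were higher and 11.2% lower. Under median centring 5 were called in place of 8, and only 1 of them was lower. Without mouse 3 the count was 13, with 6 higher and 7 lower.

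Classical and lectin pathway genes gave 0 higher and 2 lower among 7 tested, *C4b* and *C1s*, a protease of the C1 complex with a log2 ratio of −1.004 (SE 0.15, adjusted p 0.00203). The call of *C1s* was lost without mouse 1, at −0.92, under median centring, at −0.49, and with no background correction, at −0.93, and its other probe had −0.57. *C4a* and *C4b* are near-identical copies, so the call of *C4b* and the lack of one for *C4a* are uncertain. Signal shared between their probes was not tested. Of 3 alternative pathway genes, 0 were past the threshold, with ratios from −0.81 to −0.38. In the terminal pathway 1 of 3 was higher, *Hc*, the gene of component C5, with ratios of 1.34, 1.84 and 0.47 and a mean of 1.21 (SE 0.25, adjusted p 0.00774). That call was lost without mouse 2, at 0.90.

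Among fluid-phase regulators 1 of 3 was higher and 2 were lower. *Cpn1*, a subunit of the carboxypeptidase that inactivates anaphylatoxins, had a ratio of 1.55 (SE 0.20, adjusted p 0.000879), but its other probe was too dim to test. *Vtn* (vitronectin, which binds the terminal complex), at −1.51 (SE 0.15, adjusted p 0.000271), and *Serping1* (the C1 inhibitor), at −1.11 (SE 0.15, adjusted p 0.00108), were lower, and neither was called under median centring, at −0.73 and −0.46. *Vtn* was nevertheless in the high class of CPE levels, at percentile 94.4.

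Of 7 membrane regulators 1 was higher and 1 lower. *Cd55*, which speeds the decay of convertases, had log2 ratios of 2.35, 2.43 and 1.91 with a mean of 2.23 (SE 0.17, 95% interval 1.83 to 2.62, adjusted p 8.03e-05), or 4.68-fold higher in CPE. All 3 mice lay above a 2-fold change, while another *Cd55* probe gave 0.81 and was not past the threshold. A further *Cd55* probe gave −0.44, −0.26 and 0.40 with a mean of −0.10. It was well above background in CPE in mouse 3 alone and was not tested. *Susd4*, a membrane inhibitor, was lower at −1.74 (SE 0.15, adjusted p 0.000148). With the scanner's ratio, *Cd55* had 3.00, *Susd4* −2.77, *Cpn1* 3.30 and *Hc* 2.31, each farther from 0 than with loess. Of 8 receptors and binding proteins 0 were past the threshold, with ratios from −0.95 to 0.28. In that group *C1qbp*, a mostly mitochondrial protein able to bind C1q, was in the high class at percentile 96.4, with a ratio of −0.22 (adjusted p 0.288) that became 0.55 under median centring.

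**Figure D5:**
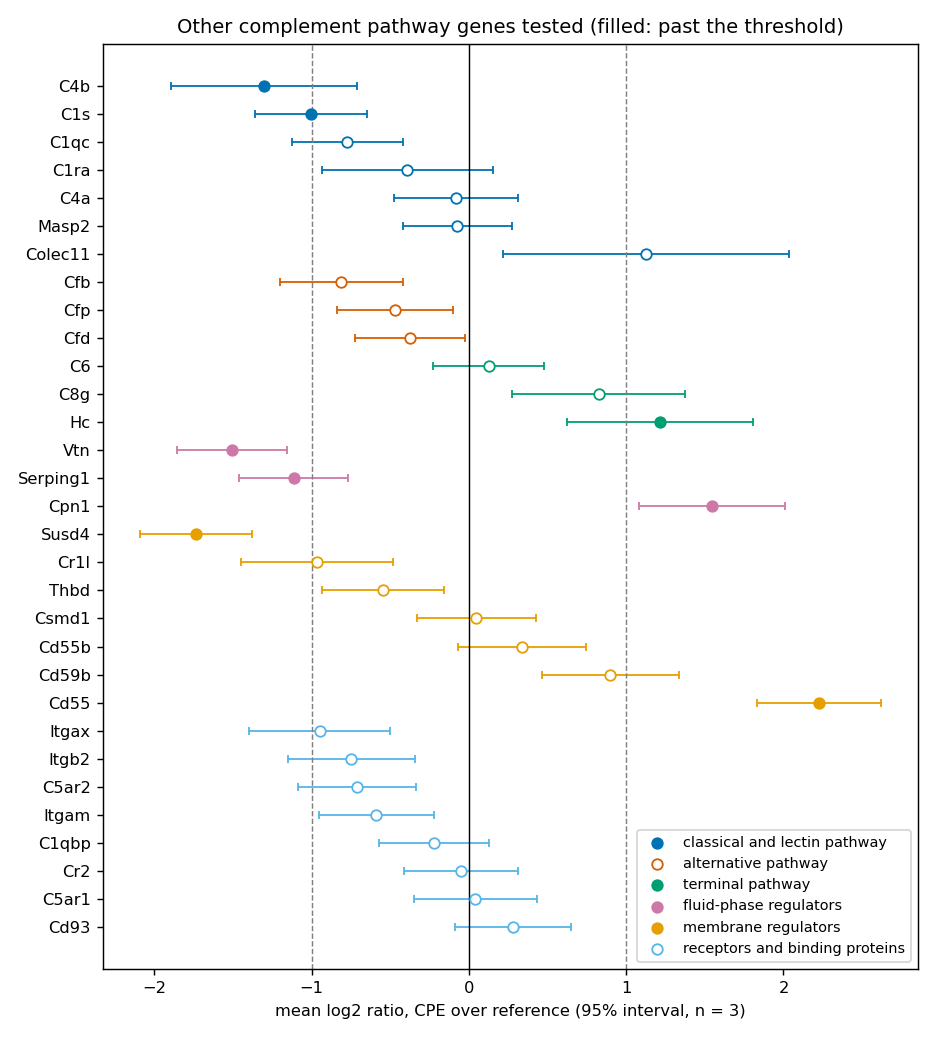
Mean log2 ratio of CPE over reference (horizontal axis) with its 95% interval for the 31 tested genes of the wider pathway list, grouped by role; filled points are past the threshold and dashed lines mark a 2-fold change. *Cd55* lies farthest to the right, at 2.23, and *Susd4* farthest to the left, at −1.74.

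Between mice, the log2 ratio had a median SD of 0.26 over all tested probes. The SD was 0.27 at *C1qa*, 0.26 and 0.52 at the *C2* probes, 0.09 at *C3* and 0.35 and 0.15 at the *Cd59a* probes. The largest, 0.54, was at *C3ar1* probe 1, followed by *C2* probe 2, and in both the sample nearest to or above the reference was mouse 3. That array had the brighter background. Its part in these values was not tested, and without mouse 3 the ratio of *C2* probe 2 was −2.02 and that of *C3ar1* probe 1 −0.74 (adjusted p 0.0153), still within 2-fold.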

How the data were processed

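The authors extracted the scans of the 3 arrays (Agilent Feature Extraction 9.5.3.1). The deposited scanner tables hold, for each spot, linear intensities of both channels, background and quality flags. Per the file headers they also hold a log10 ratio of red over green. A deposited table of log2 values, which the authors had normalized between arrays, followed the CPE level (rank correlation 0.9976, 0.998 and 0.9997 over probes) and served as an alternative. Control spots and flagged outliers were dropped, and repeated spots of a probe were averaged, using limma 3.58.1 under R 4.3.3. Ratios were made by normexp correction (offset 50) and loess within arrays. A probe entered the fit if either channel was well above background on every array. The model was fitted with an intercept alone, and p-values were adjusted by Benjamini-Hochberg over all 25841. CPE classes used log2 mean red intensity without background correction after Aquantile, with limits at percentiles 90, 50 and 10. The summed intensities of marker lists came after loess and Aquantile. The fit was tested on simulated data. Members, lists and tests were chosen with earlier results of these data known. Named genes were all members, pathway genes past the threshold or in the high class, up to 4 defining genes per marker list, and the 3 genes nearest to each member; *Cd59b* and *Cfb*, neighbours of members on the chromosome, were added after their values were seen. A gene of the pathway list is not reported here and enters no count of that list. Gene names follow the scanner files. The arrays are from separate mice, and their number limits the precision. Alternatives were other background corrections, scalings, filters, array weights, limma's treat and leaving out each mouse. The human samples were not used.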

Additional observations from a re-analysis of the deposited data

How the results depend on the processing

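The log2 ratio of each member probe was compared with each alternative in which it was tested, apart from treat, which is given below as counts. Of these comparisons, 100 kept direction and side of the threshold, 2 reversed, 2 gained the call and 3 lost it. Median centring reversed *C1qb* (0.0527) and *Cfi* (−0.0664), and *C1qbp* (0.55) of the wider list. It gave 3740 probes higher in CPE among all tested, 2 member probes lower, and 5 pathway genes, 1 of them lower. The scanner's log ratio gave 6762 probes, 2850 of them higher, and array weights 5 pathway genes higher. Testing against a 2-fold change with treat from limma gave 1414 probes (455 higher and 959 lower), 2 member probes (1 higher and 1 lower) and 2 pathway genes (1 in each direction), a lower count by its construction. With any mouse omitted, counts ran from 4029 to 5311 for all probes (1433 to 2482 higher, 2591 to 2829 lower), 5 to 6 for member probes (2 higher, 3 to 4 lower), 7 to 13 for pathway genes (2 to 6 higher, 5 to 7 lower, with 13 and 6 reached without mouse 3) and 3 to 4 for member probes in the high class. Other causes were not tested. The paralog *Cd59b* was called with the scanner's ratio, under array weights, under median centring and without mouse 3. Percentiles moved mainly when dim probes were left out of the ranking, where *Cd59a* probe 2 fell to 87.8. Low signal limits *C3ar1*, *Cfi* and *C3* probe 2. No paired analysis was possible because there was 1 group.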

Other observations

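For each member, the genes whose 3 log2 ratios lay nearest to its own were found over 15460 other genes by the root mean square difference over the 3 mice, with 1 probe per gene. This likeness rests on 3 values and describes them. *C2* had few neighbours, 9 genes within 0.2, led by *Slco4a1* (0.035), *Eif2s3y* (0.10) and *Ms4a7* (0.12). *Cd59a* had 32, led by *Clptm1* (0.013), *Psmb7* (0.098) and *Fads2* (0.099), and *Clu* had 73, led by *Mapk9*, *Npc2* and *Pgk1*. For *C3ar1* these were 77 genes, led by *Adam28*, for *C1qa* 115, led by *Klhl28*, for *C3* 130, led by *Kif21a*, and for *C1qb* 376, led by *Frmd4b*. *Cfi*, whose ratios were near 0 in every mouse, had 1278. *Eif2s3y*, named above beside *C2*, is a Y-linked gene, and the CPE mice were female. Its log2 ratios were −3.07, −2.78 and −2.91, and the part of sex in the ratios of CPE over reference was not tested.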
